A study of Rattus norvegicus with 16 samples.

Results

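The genes of sterol biosynthesis were measured in rat dorsal skin before and after the skin lost its nerve supply. The list held 8 genes, Hmgcs1, Idi1, Fdps, Fdft1, Sqle, Cyp51 and Dhcr7, which encode enzymes of the pathway, and Insig1, which encodes a regulator of it. Members were found as the probesets annotated to these genes on the Affymetrix rat genome array. In the annotation used here 7 of the 8 genes had a probeset assigned to a single gene, with 10 probesets among them, out of 14217 genes in all. Hmgcs1, which encodes the synthase that makes HMG-CoA, was not analysed here.

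All rats were adult female Sprague-Dawley animals. Naïve rats (6 arrays) had no surgery. In the other groups cutaneous nerves of the dorsal skin were transected and their proximal stumps ligated, and skin of the rostral denervated zone was taken after 7 days (5 arrays) or 14 days (5 arrays). Each array held the RNA of a separate skin sample, which included the underlying cutaneous trunci muscle, a muscle that was not itself denervated. Because naïve skin was not operated on, the incision and the loss of nerves cannot be told apart.

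Cholesterol is made from acetyl-CoA by way of mevalonate, isoprenoid diphosphates, squalene and lanosterol. When sterols are scarce in the endoplasmic reticulum, SCAP carries the SREBP transcription factors to the Golgi, where proteases release them to activate the genes of this pathway. INSIG proteins hold SCAP back when sterols are plentiful, and INSIG1 is itself encoded by an SREBP target. In skin, keratinocytes make cholesterol for the permeability barrier and sebaceous glands make sterols and squalene for sebum.

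Values are on the log2 scale after robust multi-array averaging (RMA), so that a difference of 1 is a doubling. Each gene was given the median of its probesets and was called higher or lower at a limma adjusted p under 0.05, with adjustment over all 14217 genes. Both comparisons with naïve skin used the same naïve arrays. The groups were not equally uniform. Naïve replicates 1 and 2 stood apart from the other naïve arrays in hair follicle markers, with scores (the average of 9 marker genes, each centred on its own mean across the arrays) of 1.81 and 2.00, against -3.97 to -3.73 in the other 4. The score was -0.63 to 1.66 at 7 days and 1.77 to 1.89 at 14 days, and 8 of the 9 markers were called higher at 14 days than in naïve skin. The basal keratinocyte keratins Krt5 and Krt14, defining genes of epidermis, had group means between 12.9 and 13.1. Over 9 epidermal keratinocyte markers the score ran from -0.67 to 0.41 in naïve skin, -1.48 to 0.44 at 7 days and 0.012 to 0.22 at 14 days, lowest in 7 day replicate 5. None of the 9 was called in any comparison, and at an unadjusted p under 0.05 in limma 1 was lower at 7 days and 1 higher at 14 days. Sarcomere genes of muscle were called lower at 14 days than in naïve skin in 11 of 18 cases, with scores of -0.69 to 0.92 in naïve skin, -0.56 to 0.49 at 7 days and -0.72 to -0.37 at 14 days. In bulk skin, fewer cells of a type and less RNA per cell cannot be told apart.

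Insig1 was the only member called against naïve skin, and it was higher at 14 days. In the fit over all arrays Cyp51 was the only member called between the times, and it was lower at 14 days than at 7 days. No member was called at 7 days against naïve skin. The estimate of the spread in that fit included the naïve arrays. Fitted with only the 7 and 14 day arrays, Insig1 (1.52, limma adjusted p = 0.00282) and Idi1 (-0.50, adjusted p = 0.0319) also passed between the times. With all arrays the count at 14 days was 1 of 7 higher and 0 of 7 lower, where 8.95% of all genes were called higher and 14.6% lower. Between the times the count was 0 of 7 higher and 1 of 7 lower, where 8.86% of all genes were called higher and 10.1% lower. At 7 days 7.85% of all genes were called higher and 2.66% lower. At an unadjusted p under 0.05 in the same limma fit, 1 member was higher (Sqle) and 0 lower at 7 days. At 14 days 2 were higher (Sqle and Insig1) and 2 lower (Cyp51 and Fdft1), and between the times 1 was higher (Insig1) and 2 lower (Idi1 and Cyp51). Counts of 0 or 1 among 7 genes are near the shares over all genes and say nothing of the list as a whole. The share of all genes at an unadjusted p under 0.05 in limma was not counted. Counts at that threshold, here and for the other lists, are therefore not read as a result about any list.

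Along the pathway the members did not move in a single direction. Over the 7 members the median difference from naïve skin was 0.19 at 7 days and -0.096 at 14 days on the log2 scale, against -0.022 and 0.023 over all genes. At 14 days the members ranged from -0.32 for Cyp51 to 2.03 for Insig1.

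**Figure D1:**
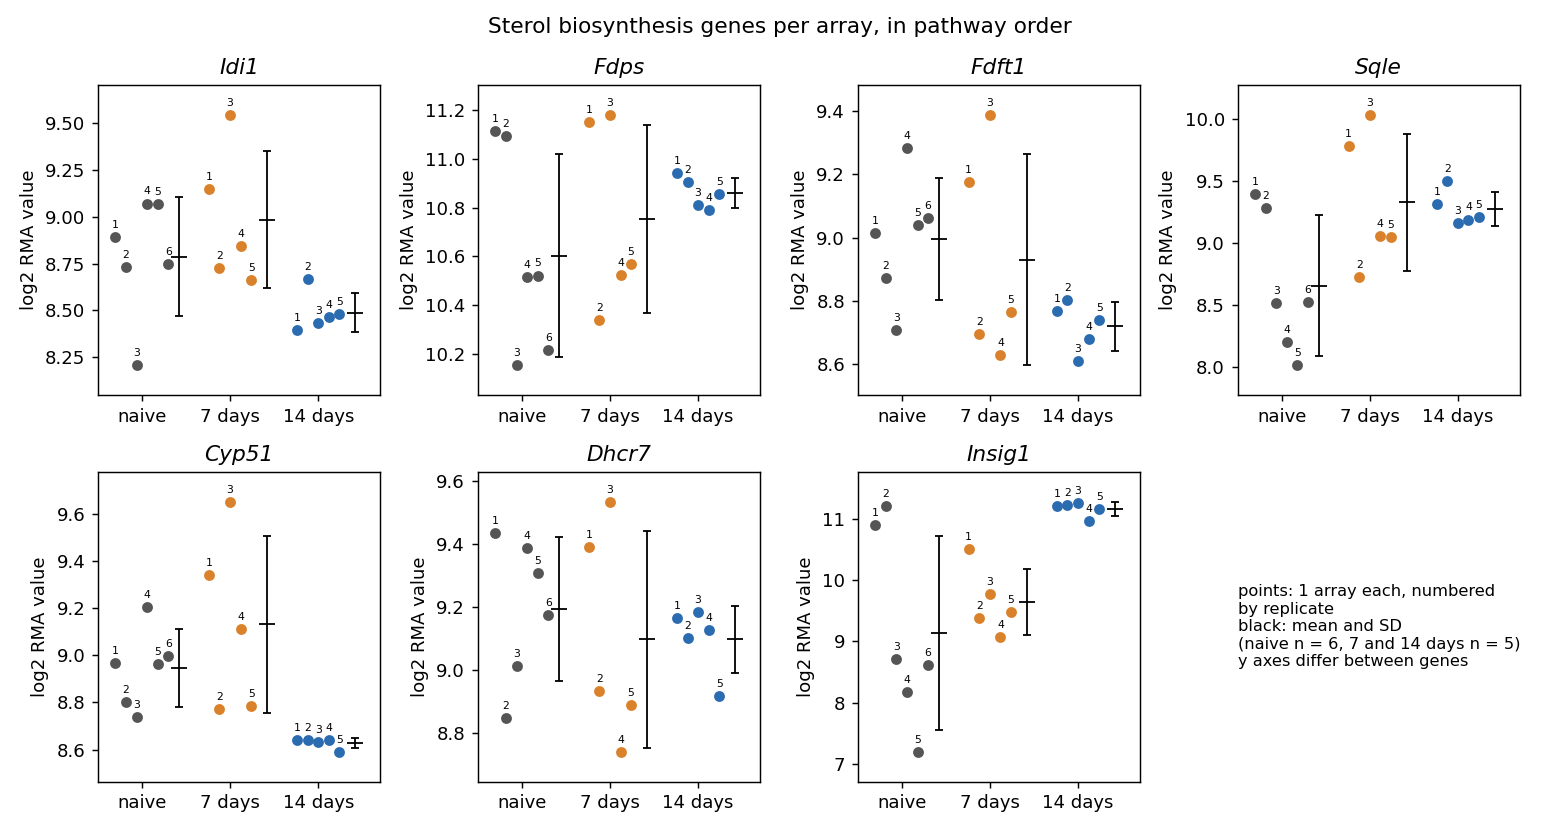
Log2 RMA values (y axes, which differ between genes) of the 7 measured genes in each array, with replicate numbers above the points and the mean and SD in black (naïve n = 6, 7 days n = 5, 14 days n = 5). The 14 day arrays lie close together in each gene, naïve replicates 1 and 2 lie above the other naïve arrays in Fdps, Sqle and Insig1, and 7 day replicates 1 and 3 lie above the other 7 day arrays in all 7 genes.

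Idi1 encodes isopentenyl-diphosphate isomerase, which interconverts the basic isoprenoid units. Its naïve values ran from 8.21 to 9.07, with a median of 8.82. At 7 days the replicates were at 9.15, 8.73, 9.54, 8.84 and 8.66, and at 14 days at 8.40, 8.67, 8.43, 8.47 and 8.48. The 14 day arrays lay in the lower part of the naïve range, and the highest of them, replicate 2, just exceeded the lowest 7 day array. The log2 fold change was 0.20 at 7 days (SE 0.165, limma adjusted p = 0.434) and -0.30 at 14 days (SE 0.165, adjusted p = 0.188). Between the times it was -0.50 (SE 0.172, adjusted p = 0.0547). The probesets differed in this last comparison. Fitted singly, 1368878_at was lower at 14 than at 7 days, at -0.58 (adjusted p = 0.0247), while 1388872_at was at -0.42 (adjusted p = 0.121).

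Fdps encodes farnesyl diphosphate synthase, which makes the 15-carbon isoprenoid from which squalene and prenyl groups are built. Its naïve values ran from 10.15 to 11.11 with a median of 10.52. The 7 day replicates were at 11.15, 10.34, 11.18, 10.52 and 10.57, and the 14 day replicates at 10.94, 10.90, 10.81, 10.79 and 10.86. Naïve replicates 1 and 2, at 11.11 and 11.09, lay above every 14 day array, and the other 4 naïve arrays lay below every 14 day array. The log2 fold change was 0.15 at 7 days (SE 0.192, adjusted p = 0.619) and 0.26 at 14 days (SE 0.192, adjusted p = 0.328). Without naïve replicates 1 and 2 the 14 day value was 0.51 and passed limma (adjusted p = 0.019), and without naïve replicates 4 and 5 it was 0.22 (adjusted p = 0.547).

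Fdft1 encodes squalene synthase, which joins farnesyl units in the first step committed to sterols. Naïve values ran from 8.71 to 9.28 with a median of 9.03. The replicates at 7 days were at 9.18, 8.69, 9.39, 8.63 and 8.76, and those at 14 days at 8.77, 8.80, 8.61, 8.68 and 8.74. Only naïve replicate 3 fell within the range of the 14 day arrays, and the other 5 naïve arrays lay above it. The log2 fold change was -0.067 at 7 days (SE 0.130, adjusted p = 0.751), -0.28 at 14 days (SE 0.130, adjusted p = 0.124) and -0.21 between the times (SE 0.135, adjusted p = 0.266). Both probesets of Fdft1 had values of the same sign in each comparison, and neither passed limma.

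Sqle encodes squalene epoxidase, an oxygen-dependent and rate-limiting enzyme of the sterol branch. Its naïve values ran from 8.02 to 9.40 with a median of 8.52. At 7 days the replicates were at 9.78, 8.73, 10.03, 9.05 and 9.05, and at 14 days at 9.31, 9.50, 9.16, 9.19 and 9.20. Naïve replicates 1 and 2, at 9.40 and 9.28, lay among the denervated arrays, whereas the other 4 naïve arrays, at 8.53 or less, lay below all 10 of them. The log2 fold change was 0.67 at 7 days (95% interval 0.11 to 1.24, adjusted p = 0.111) and 0.62 at 14 days (95% interval 0.051 to 1.18, adjusted p = 0.0991), and neither passed limma. Without naïve replicates 1 and 2 Sqle was higher at both times, by 1.01 at 7 days (adjusted p = 0.00366) and by 0.96 at 14 days (adjusted p = 0.0033). Without naïve replicates 4 and 5, which held its lowest values, it was at 0.40 (adjusted p = 0.463) and 0.34 (adjusted p = 0.401). Leaving out naïve replicate 1 alone also brought Sqle past the threshold, with 0.82 at 7 days (adjusted p = 0.042) and 0.76 at 14 days (adjusted p = 0.0333). Leaving out naïve replicate 2 alone gave 0.80 (adjusted p = 0.047) and 0.74 (adjusted p = 0.0406).

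Cyp51 encodes lanosterol 14-alpha-demethylase, the cytochrome P450 that removes the first methyl group from lanosterol. Naïve values ran from 8.74 to 9.21 with a median of 8.96. The 7 day replicates were at 9.34, 8.77, 9.65, 9.11 and 8.78, and the 14 day replicates at 8.64, 8.64, 8.63, 8.64 and 8.59. All 14 day arrays lay below every naïve array and every 7 day array, and they were nearly equal to each other (SD 0.0209). Over all genes, 6.66% had 14 day arrays wholly below the naïve arrays and 11.6% had them wholly below the 7 day arrays. Cyp51 was lower at 14 than at 7 days, by a log2 fold change of -0.50 (SE 0.140, 95% interval -0.80 to -0.21, adjusted p = 0.0245). Against naïve skin it was at 0.19 at 7 days (SE 0.134, adjusted p = 0.359) and -0.32 at 14 days (SE 0.134, adjusted p = 0.0927). Its probesets both passed between the times, 1367979_s_at at -0.60 (adjusted p = 0.0171) and 1387020_at at -0.40 (adjusted p = 0.0428). Against naïve skin at 14 days only 1367979_s_at passed, at -0.43 (adjusted p = 0.0476). The call between the times was lost without 7 day replicate 3 (-0.37, adjusted p = 0.0509) and without 14 day replicate 5 (-0.49, adjusted p = 0.0549).

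Sebaceous gland markers were lower in score in the 14 day arrays (-0.25 to -0.097) than in 4 of the 5 arrays at 7 days, whose whole range was -0.52 to 0.54, and the naïve arrays ran from -0.23 to 0.30. None of the 6 measured markers was called in any comparison, and at an unadjusted p under 0.05 in limma 1 was lower at 14 days than in naïve skin and 2 were lower between the times. With this score as a covariate Cyp51 was at -0.37 between the times and did not pass limma (adjusted p = 0.0786). It passed with the hair follicle score (-0.50, adjusted p = 0.0264), the sarcomere score (-0.56, adjusted p = 0.0226) and the adipocyte score (-0.50, adjusted p = 0.0246). A covariate that differs between the groups also removes part of any difference between them. The part of sebaceous glands in the level of Cyp51 was not tested.

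Dhcr7 encodes 7-dehydrocholesterol reductase, which makes cholesterol from 7-dehydrocholesterol, the precursor of vitamin D in skin. Naïve values ran from 8.85 to 9.43 with a median of 9.24. The replicates at 7 days were at 9.39, 8.93, 9.53, 8.74 and 8.89, and those at 14 days at 9.16, 9.10, 9.18, 9.13 and 8.92. The 3 groups overlapped throughout. The log2 fold change was -0.096 at 7 days (95% interval -0.40 to 0.20, adjusted p = 0.669) and -0.096 at 14 days (95% interval -0.40 to 0.20, adjusted p = 0.64), so that a change beyond these bounds was not seen in either direction.

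Insig1, the regulator, showed the widest spread. Naïve replicates 1 to 6 were at 10.89, 11.20, 8.71, 8.18, 7.21 and 8.62. At 7 days the replicates were at 10.50, 9.38, 9.78, 9.08 and 9.48, and at 14 days at 11.20, 11.22, 11.26, 10.96 and 11.16. Naïve replicates 1 and 2 lay at about the level of the 14 day arrays, and the other 4 naïve arrays lay below every 7 day array, so that naïve skin spanned 3.99 on the log2 scale against 0.29 at 14 days. All 14 day arrays were above all 7 day arrays, as was the case for 9.07% of all genes. Insig1 was higher at 14 days than in naïve skin, with a log2 fold change of 2.03 (4.08-fold, SE 0.574, 95% interval 0.81 to 3.25, adjusted p = 0.0241). It was at 0.51 at 7 days (SE 0.574, adjusted p = 0.57) and at 1.52 between the times (SE 0.599, 95% interval 0.24 to 2.79, adjusted p = 0.084).

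The call on Insig1 depended on which naïve arrays were used. Without naïve replicates 1 and 2 it was higher at 7 days as well (1.46, adjusted p = 0.00219), at 14 days by 2.98 (adjusted p = 7.02e-06), and between the times, where only the estimate of the spread changed, by 1.52 (adjusted p = 0.00292). Without naïve replicates 4 and 5, which held its lowest values, the 14 day value was 1.31 and did not pass (adjusted p = 0.11). It also missed the threshold without naïve replicate 4 alone (1.84, adjusted p = 0.0573), without naïve replicate 6 (1.92, adjusted p = 0.0525) and without 14 day replicate 5 (2.03, adjusted p = 0.0508).

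**Figure D2:**
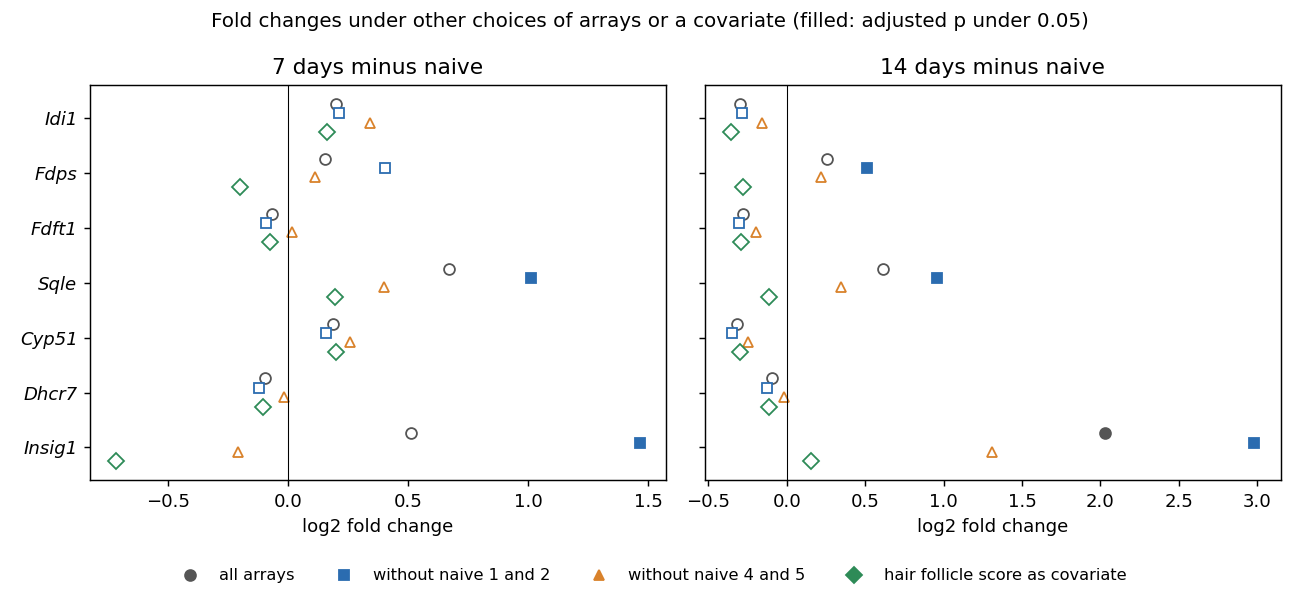
Log2 fold change (x axis) of each gene at 7 days (left) and 14 days (right) against naïve skin, with all arrays, without naïve replicates 1 and 2, without naïve replicates 4 and 5, or adjusted for the hair follicle score, where filled symbols mark a limma adjusted p under 0.05. With all arrays only Insig1 at 14 days is filled, and without naïve replicates 1 and 2 Sqle and Insig1 at both times and Fdps at 14 days are filled.

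Insig1, Sqle and Fdps moved with the hair follicle markers across arrays. The arrays with the lowest hair follicle scores, naïve replicates 3 to 6, held the 4 lowest values of Insig1 and of Sqle, and the 5 14 day arrays and naïve replicates 1 and 2, with the highest scores, held the 7 highest values of Insig1. Idi1, Fdft1, Cyp51 and Dhcr7 showed no such order, since naïve replicates 4 and 5, with low scores, lay above every 14 day array in each. When the fit was given the hair follicle score as a covariate, Insig1 at 14 days was at 0.15 (adjusted p = 0.799), Sqle at -0.11 (adjusted p = 0.816) and Fdps at -0.28 (adjusted p = 0.343). Insig1 then passed between the times, at 0.87 (adjusted p = 0.0159). With the sarcomere score as a covariate Insig1 at 14 days was at 0.33 (adjusted p = 0.683). Because the scores differed between the groups, these fits also remove part of any difference between the groups. Other scores changed Insig1 at 14 days little. With the adipocyte score as a covariate it was at 1.88 and passed limma (adjusted p = 0.0161). With the sebaceous gland score it was at 1.87 and did not pass (adjusted p = 0.0643).

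**Figure D3:**
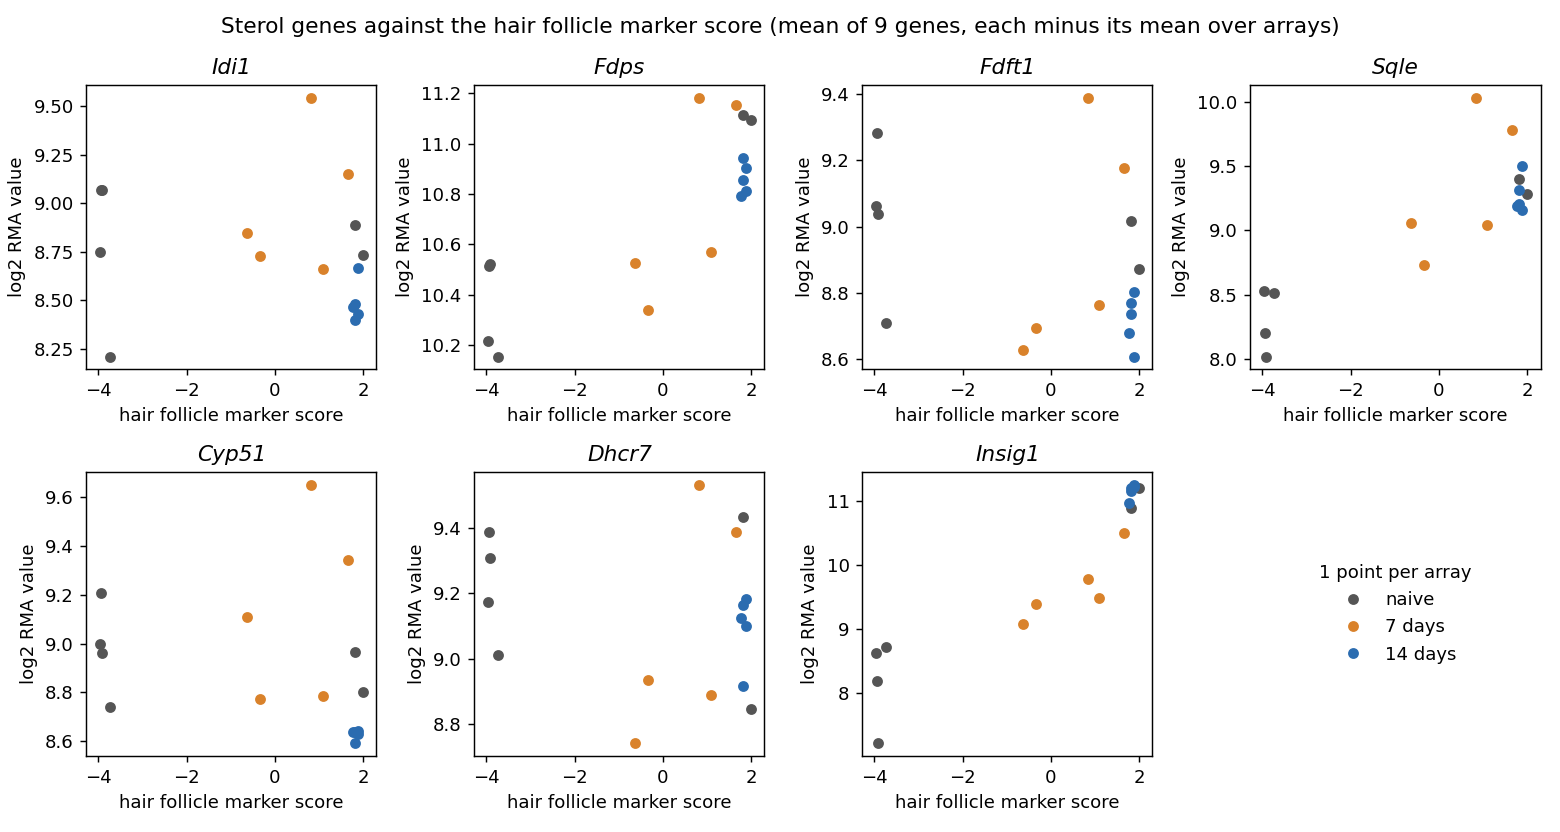
Log2 RMA value (y axes) of each gene against the hair follicle marker score (x axes) with 1 point per array, coloured by group. Naïve arrays fall into a cluster of 4 with scores under -3.7 and a pair near the 14 day arrays, and Insig1 and Sqle are lowest in the cluster of 4.

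The 7 day arrays divided in another way, and here all 7 members moved together. Replicates 1 and 3 were above the other 7 day arrays in 7 of 7 members, a pattern that 2130 of all 14217 genes had. The same was true of 14 of the 19 measured pathway genes from acetyl-CoA to cholesterol. These 19 include 6 of the members, Ggps1, which encodes an isoprenoid enzyme of a side branch, and Erg28, which encodes a scaffold and no enzyme. It was also true of 6 of 10 genes of fatty acid synthesis, among them Fasn, Acaca, Acly and Scd, and of 4 of 6 sebaceous gland markers. Naïve replicates 1 and 2 were above the other naïve arrays in 3 of 7 members (Fdps, Sqle and Insig1), where 25.7% of all genes had this pattern. Replicates 1 and 3 also had the lowest sarcomere scores of the 7 day arrays, at -0.56 and -0.40 against 0.20 to 0.49 in the other 3, the highest sebaceous gland scores, at 0.32 and 0.54 against -0.52 to 0.19, and the highest epidermal keratinocyte scores, at 0.44 in each against -1.48 to 0.025. The part of muscle, sebaceous glands and keratinocytes in this pattern was not tested. These counts were made after the values had been seen and are a description of the arrays.

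The 14 day arrays were the most uniform. The SD at 14 days was the smallest of the 3 groups for 7 of 7 members and for 67.7% of all genes. The median SD over the members was 0.318 in naïve skin, 0.375 at 7 days and 0.105 at 14 days, and over all genes it was 0.176, 0.148 and 0.0981. At 7 days the SD of each member, at 0.333 to 0.551, exceeded the median over all genes, while at 14 days the median over the members was near that of all genes.

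**Figure D4:**
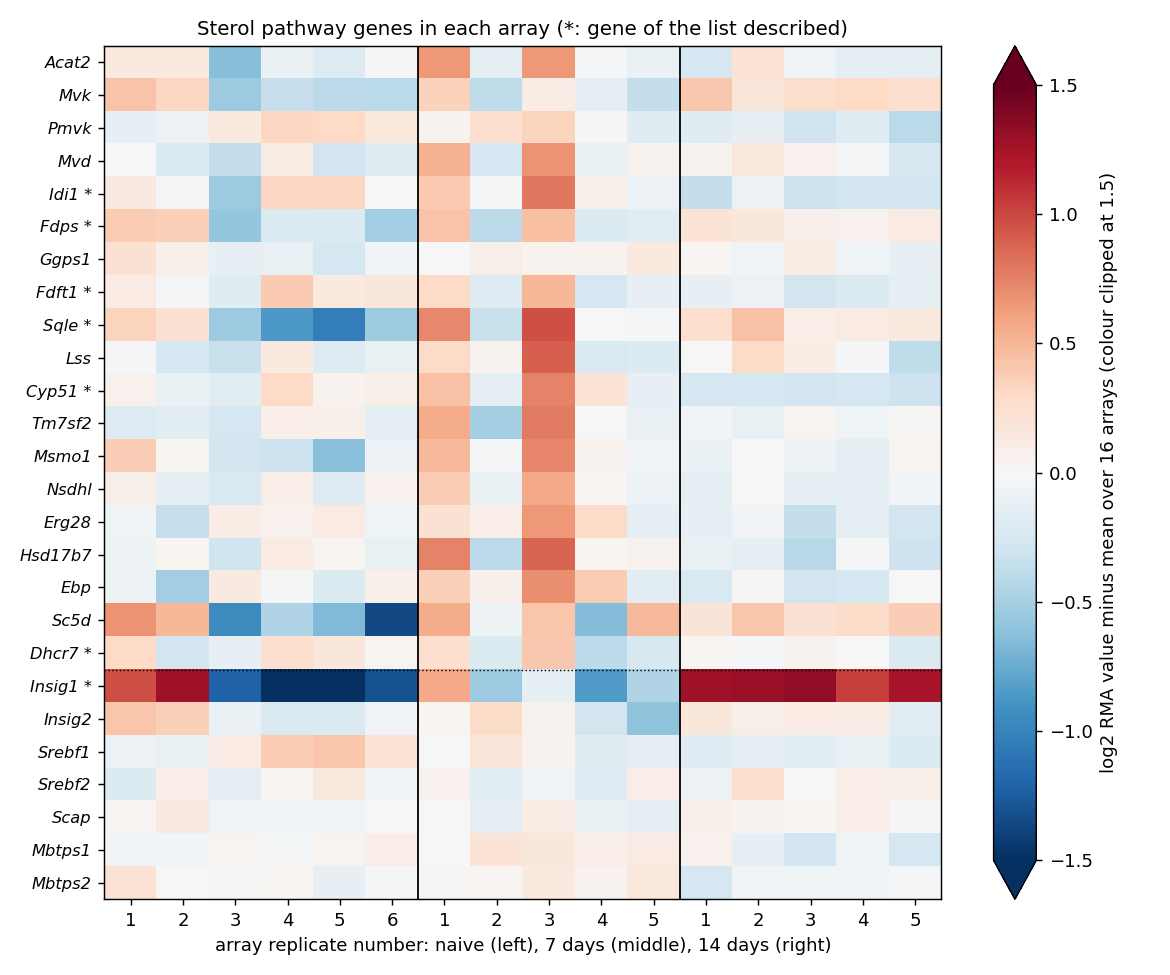
Log2 RMA value minus the mean over the 16 arrays (colour, clipped at 1.5) for genes of the pathway in order from acetyl-CoA to cholesterol and for SREBP regulators below the dotted line. Columns are arrays with their replicate numbers, naïve at the left, 7 days in the middle and 14 days at the right, and 7 day replicates 1 and 3 are high in most of the enzymes.

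The rest of the pathway was also measured. Over the 19 pathway genes from acetyl-CoA to cholesterol, with Ggps1 and Erg28 among them, the median log2 fold change came to 0.24 at 7 days. It was 0.019 at 14 days and -0.21 between the times. At 7 days 16 of the 19 had values above 0, but none was called in limma, and at an unadjusted p under 0.05 there were 4 higher and 0 lower. The share of all genes with values above 0 was not counted. In 14 of these 19 genes 7 day replicates 1 and 3 were above the other 7 day arrays. The count above 0 is therefore not read as a shift of the pathway. At 14 days 0 were called higher and 1 lower, with 2 higher and 3 lower at an unadjusted p under 0.05. The shares over all genes were 8.95% called higher and 14.6% lower at 14 days, and 8.86% and 10.1% between the times. Beside these shares, the counts among 19 genes are not read as a result about the pathway. Between the times 0 of the 19 were called higher (also 0 at an unadjusted p under 0.05) and 3 lower (6 at an unadjusted p under 0.05), of which Cyp51 was the member.

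The other 2 were Pmvk, which encodes the kinase that makes mevalonate diphosphate, and Erg28, which encodes a scaffold for the enzymes that demethylate sterols at carbon 4. Pmvk was lower at 14 days than in naïve skin (-0.35, SE 0.102, adjusted p = 0.0266) and than at 7 days (-0.33, SE 0.107, adjusted p = 0.0419). Its naïve replicates 1 and 2, at 7.72 and 7.75, lay near the 14 day range of 7.44 to 7.73 and below the other naïve arrays, at 7.99 to 8.16. Erg28 was lower at 14 than at 7 days (-0.41, SE 0.125, adjusted p = 0.0347). Ebp, the sterol isomerase, had -0.42 between the times (adjusted p = 0.0585), close to Idi1. Mvk, mevalonate kinase, had 0.44 at 14 days (adjusted p = 0.0837) and Sc5d, the desaturase that makes 7-dehydrocholesterol, had 0.67 (adjusted p = 0.138), and in both genes naïve replicates 1 and 2 lay above the other naïve arrays, as they did in Sqle and Fdps.

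**Figure D5:**
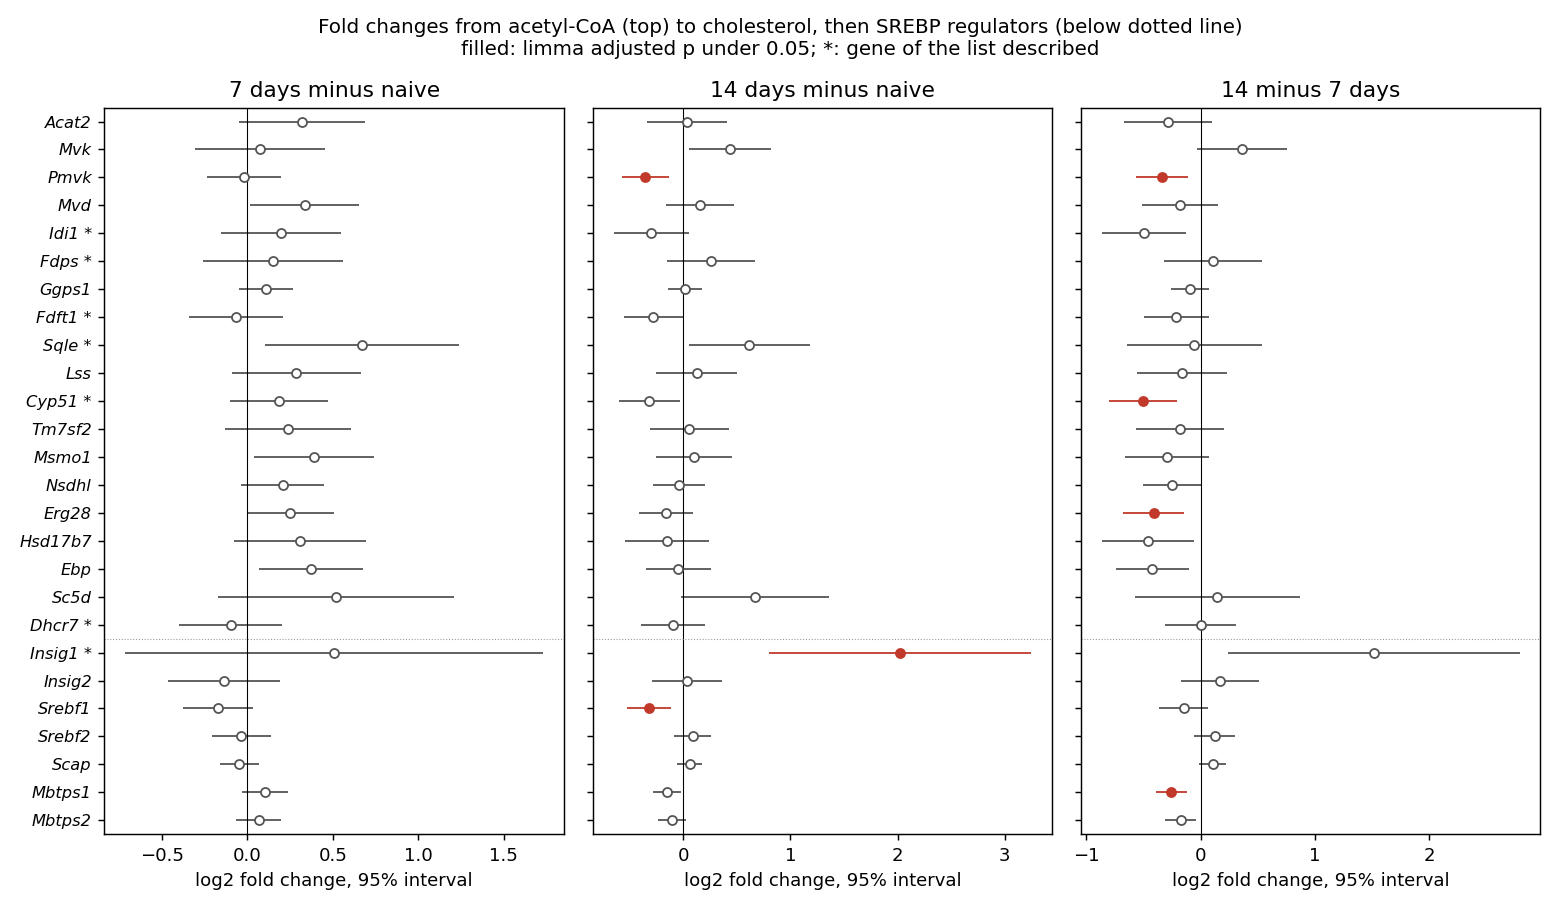
Log2 fold change with its 95% interval (x axis) for 7 days against naïve skin, 14 days against naïve skin and 14 against 7 days, with genes in pathway order and SREBP regulators below the dotted line. Filled points passed limma at an adjusted p under 0.05, and the interval of Insig1 at 14 days runs from 0.81 to 3.25.

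Among 6 other genes of SREBP regulation, none was called at 7 days (0 also at an unadjusted p under 0.05 in limma). Srebf1, which encodes the SREBP isoforms that act mainly on fatty acid genes, was lower at 14 days than in naïve skin (-0.32, SE 0.0969, adjusted p = 0.0306). Its naïve replicates 1 and 2 were at 8.78 and 8.75, close to the 14 day range of 8.66 to 8.76, and the other naïve arrays at 8.99 to 9.28. Srebf2, which encodes the isoform that acts mainly on sterol genes, was at -0.035 at 7 days and 0.089 at 14 days (adjusted p = 0.795 and 0.436). Mbtps1, the protease that makes the first cut in SREBP, was lower at 14 than at 7 days (-0.25, SE 0.0655, adjusted p = 0.0181). Insig2, the paralog of Insig1, was at 0.033 at 14 days (adjusted p = 0.89). The difference seen in Insig1 at 14 days was thus not called in Insig2, Scap or Srebf2, and the difference between these genes was not tested.

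Genes that handle sterols after synthesis were described in the same fit. Of 5 measured genes of uptake and transport, 2 were called higher and 1 lower at 7 days. Npc2, which carries cholesterol out of lysosomes, was higher at 7 days (0.63, SE 0.157, adjusted p = 0.0208) and lower at 14 than at 7 days (-0.71, SE 0.164, adjusted p = 0.012). Scarb1, the receptor for high-density lipoprotein, was higher at 7 days (0.64, SE 0.178, adjusted p = 0.0339), and Osbp, an oxysterol-binding protein, was lower (-0.24, SE 0.0556, adjusted p = 0.0164). Macrophage markers moved over the same times, with 11 of 14 called higher at 7 days and scores of -1.91 to 0.63 in naïve skin, 0.33 to 1.02 at 7 days and -0.094 to 0.34 at 14 days, and their part in these values was not tested.

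Of 8 genes of efflux, esterification and LXR signaling, none was called at 7 days (1 higher and 0 lower at an unadjusted p under 0.05 in limma), and 2 were lower at 14 days and 3 between the times. Nr1h3, which encodes the oxysterol receptor LXR alpha, was lower at 14 days than in naïve skin (-0.50, SE 0.146, adjusted p = 0.0269) and than at 7 days (-0.67, SE 0.153, adjusted p = 0.0114). Mylip, an LXR target whose product degrades the LDL receptor, was also lower in both (-0.23, adjusted p = 0.0376, and -0.30, adjusted p = 0.0187). Lcat, which esterifies cholesterol in lipoproteins, was lower between the times (-0.58, SE 0.134, adjusted p = 0.012). Of 5 genes of sterol oxidation, Cyp27a1, the sterol 27-hydroxylase, was lower at 14 days (-0.81, SE 0.205, adjusted p = 0.0153). Naïve replicates 1 and 2 were at 7.56 and 7.82 for Cyp27a1, within the 14 day range of 7.38 to 7.82, and the other naïve arrays at 8.36 to 8.95. For Nr1h3 these replicates were at 6.85 and 6.95, the lowest naïve values but above the 14 day range of 6.61 to 6.81.

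Among 6 enzymes that use isoprenoids for other products, Pdss2, a subunit of the enzyme that makes the side chain of ubiquinone, was lower at 14 days (-0.44, SE 0.125, adjusted p = 0.0255), where naïve replicates 1 and 2 had the lowest naïve values, 7.42 and 7.21, against 7.13 to 7.37 at 14 days. Of 10 genes of fatty acid synthesis, 1 was called higher and 1 lower at 7 days, Fads1, a desaturase (1.15, SE 0.336, adjusted p = 0.0414), and Me1, malic enzyme (-0.36, SE 0.0826, adjusted p = 0.014). Fads1 was at 8.38 to 8.66 in naïve replicates 1 to 3 and at 6.34 to 7.62 in naïve replicates 4 to 6, against 8.69 to 9.19 at 7 days. Fads2, the other desaturase, was higher at 14 days (0.72, SE 0.237, adjusted p = 0.0412). Its naïve replicates 1 and 2, at 6.86 and 7.00, lay at the 14 day level of 6.65 to 6.97, and the other naïve arrays at 5.60 to 5.80. Acly, ATP citrate lyase, was lower between the times (-0.35, SE 0.116, adjusted p = 0.0454).

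Promoters are shown because the members are known to share a regulator and because they moved together among the 7 day arrays. The reference table held 6 of the 8 listed genes, not Sqle or Fdft1. The sequences are from RefSeq, build GRCr8, and give the 250 bases before the annotated start, 5′ to 3′ on the strand of the gene. Capitals mark every match on either strand to CCAAT, the box bound by NF-Y, which acts with SREBP, and to GGGCGG, the box bound by Sp1. Shown are the members called in a comparison, Insig1 (chr4:8057770-8058019, minus strand) and Cyp51 (chr4:30991443-30991692, plus strand), and those next to them by size of change or by pattern, Fdps (chr2:176804817-176805066, minus strand) and Idi1 (chr17:66547525-66547774, minus strand).
Insig1: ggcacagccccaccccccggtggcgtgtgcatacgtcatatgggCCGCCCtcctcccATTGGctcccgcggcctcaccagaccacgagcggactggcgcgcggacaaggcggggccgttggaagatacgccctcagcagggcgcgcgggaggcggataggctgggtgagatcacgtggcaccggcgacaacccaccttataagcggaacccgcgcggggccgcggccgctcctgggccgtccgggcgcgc
Cyp51: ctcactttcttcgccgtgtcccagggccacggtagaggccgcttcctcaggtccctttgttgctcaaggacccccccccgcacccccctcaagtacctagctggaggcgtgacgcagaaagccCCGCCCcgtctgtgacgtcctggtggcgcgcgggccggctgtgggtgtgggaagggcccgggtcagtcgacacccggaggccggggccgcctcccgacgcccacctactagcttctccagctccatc
Fdps: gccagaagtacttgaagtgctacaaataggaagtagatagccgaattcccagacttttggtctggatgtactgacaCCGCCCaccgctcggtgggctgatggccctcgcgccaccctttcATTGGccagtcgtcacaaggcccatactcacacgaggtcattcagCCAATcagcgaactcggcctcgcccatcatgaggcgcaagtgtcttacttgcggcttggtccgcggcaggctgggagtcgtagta
Idi1: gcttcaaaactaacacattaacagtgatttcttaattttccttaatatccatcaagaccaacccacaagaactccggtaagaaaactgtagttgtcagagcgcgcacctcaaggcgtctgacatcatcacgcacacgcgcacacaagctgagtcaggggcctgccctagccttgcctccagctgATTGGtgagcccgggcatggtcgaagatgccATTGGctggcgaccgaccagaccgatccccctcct

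CCAAT was matched in 4 of the 6 windows of 300 bases (Hmgcs1, Idi1, Fdps and Insig1) and in 37.5% of 33465 windows in the table. GGGCGG was matched in 5 of 6, against 33.1%, and the boxes did not overlap CCAAT matches in the stretches shown. In Fdps the CCAAT matches began 130 and 85 bases before the start, in Idi1 66 and 35 bases before it, and in Insig1 a single match began 193 bases before it. Cyp51 and Dhcr7 had no CCAAT match in their windows. A relation between matches and the direction of change was not tested. The core of the sterol regulatory element, searched as TCACNCCAC on both strands, was matched in 0 of 6 member windows and in 1.12% of all windows, so these letters were not in the windows searched. Over the 18 windows of pathway genes and members, CCAAT was matched in 14 and GGGCGG in 15. A match is a string of letters and does not show that a factor binds.

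The genes whose level most resembled the mean of the members across the 16 arrays were Rhpn2, Vcpkmt, Ankrd50, Nudt5, Slc25a13, Hars1, Slc25a1, Tmem254, Fam136a and Tom1l1. Their Pearson correlations with that mean ran from 0.938 for Rhpn2 down to 0.913 for Tom1l1 (n = 16 arrays). None of them was in the lists of sterol or marker genes. The mean itself followed Fdps (0.943) and Sqle (0.925) more than Insig1 (0.748), and the other members were at 0.285 to 0.399. Each member is part of that mean, so its correlation is partly with itself. These correlations describe arrays that fall into clusters and carry no test.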

How the data were processed

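Skin RNA of 16 samples was hybridised to 1-colour Affymetrix arrays, 1 array per sample. The authors deposited log2 values made by RMA. The submitters' processing notes name R 3.0.1. The RMA version was not given in the sources used here. RMA models the probes of a probeset over all arrays together and equalises the distribution of values between arrays, so a shift common to most genes cannot be seen. The labels gave the groups and no batch, and the methods count 1 rat per array. The number of arrays limits the precision.

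Of 31099 probesets, 57 control probesets, 9780 with no gene and 436 with several genes were left out. The other 20826 gave 14217 genes, each with the median of its probesets. Groups were compared in 1 model over all arrays with limma 3.58.1 (lmFit and eBayes) in R 4.3.3. On simulated data, the fit recovered 88% of 50 genes with an increase of 1 at 7 days, 90% of 50 with a decrease of 1, 72% of 50 with an increase of 0.5 and 62% of 50 with a decrease of 0.5. The simulated noise was normal with 1 spread per gene in all groups, and the changed genes were picked at random. The split of the naïve arrays and the unequal spreads of the groups were not simulated, so these rates need not hold for the members.

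The genes, the lists, the marker genes and the pairs of naïve arrays left out were chosen with earlier results of these data known. Named genes are the members, any gene of the pathway lists, and the 10 genes most correlated with the members' mean. Other settings concerned the choice of probeset, dim genes, scaling, weights, moderation, the arrays used, covariates, a replicate block and the threshold. Promoters came from RefSeq windows of GRCr8. Numbers of replicates did not pair the samples.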

Additional observations from a re-analysis of the deposited data

Results flagged for a closer look

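Cyp51 gave both results that stood out. At 14 days, replicate 5 was at 8.59 and the nearest of the other arrays at 8.63, a gap of 0.807 of the whole range of the group, past Dixon's critical value for 5 samples. It was 1 of 21 groups tested for a far array, where chance alone flags about 1 in 20. The range at 14 days was only 0.0485 on the log2 scale, and without this array the fold change between the times was -0.49 (limma adjusted p = 0.0549).

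The change of Cyp51 from naïve skin differed between the times, at -0.50 for 14 against 7 days (limma adjusted p = 0.0245). At 7 days it was at 0.19 and at 14 days at -0.32 relative to the same naïve arrays.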

How the results depend on the processing

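Each of the 21 fold changes of members was recomputed under 32 settings. Of these 672 values 595 kept their direction and their side of the threshold, 14 fell below it, 35 rose past it and 28 changed sign. Leaving out 1 array at a time, the members called higher ranged from 0 to 1 at 7 days, 0 to 2 at 14 days and 0 to 1 between the times, and those called lower from 0 to 1 at 14 days and 0 to 2 between the times. No member was called lower at 7 days under any of the settings. Sqle between the times then ranged from -0.20 to 0.12, Dhcr7 from -0.089 to 0.11, and Fdft1 at 7 days from -0.18 to 0.0088.

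At 7 days the count of members higher was 1 with array weights and 2 without naïve replicates 1 and 2. At 14 days it was 3 under each of these, 2 at an adjusted p under 0.1, and 0 with the hair follicle, sarcomere or sebaceous gland score as a covariate, without naïve replicates 4 and 5, or at an adjusted p under 0.01. The count lower at 14 days was 1 with the brightest probeset, with single probesets, with only the groups compared or at an adjusted p under 0.1, and 2 with array weights. Between the times 1 member (Insig1) was higher with array weights, only the groups compared, the hair follicle score, either pair of naïve arrays left out, or an adjusted p under 0.1. The count lower between the times was 2 with the brightest probeset, array weights, only the groups compared, the sarcomere or adipocyte score, without naïve replicates 4 and 5 or at an adjusted p under 0.1, it was 3 with single probesets (of 10), and it was 0 after a second quantile normalization, with the sebaceous gland score or at an adjusted p under 0.01.

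Samples with the same replicate number did not deviate together (correlations of deviations from -0.552 to 0.583 over 15 pairs). With the number as a replicate block, the count of members higher at 14 days was 0, and Insig1 was at 1.92 (adjusted p = 0.0514).

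Signs changed with the hair follicle score for Fdps (-0.20 at 7 days, -0.28 at 14 days and -0.078 between the times), Insig1 (-0.72 at 7 days), Sqle (-0.11 at 14 days) and Dhcr7 (-0.0047 between the times). They changed with the sarcomere score for Fdps (-0.087, -0.28 and -0.20), Insig1 (-0.24 at 7 days), Sqle (-0.19 at 14 days) and Dhcr7 (-0.031 between the times). Dhcr7 was at 0.0053 at 14 days and Sqle at 0.00059 between the times with the sebaceous gland score. Dhcr7 between the times was at -0.034 with array weights, and Sqle at 0.087 after a second quantile normalization. Without naïve replicates 4 and 5 Fdft1 was at 0.016 and Insig1 at -0.21 at 7 days. The cause of these changes was not tested. None of the values with changed sign passed the threshold. Over all genes, the count called ranged over the settings at 7 days from 264 to 2706 higher (1116 in the fit reported) and from 31 to 2334 lower (378), at 14 days from 72 to 3572 higher (1272) and from 172 to 3411 lower (2071), and between the times from 224 to 2265 higher (1260) and from 329 to 2589 lower (1430).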
